A study of Mus musculus with 4 samples.

Results

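Cluster 4 is 1 of the 17 clusters into which the authors sorted the spots of 4 mouse brain sections, and it holds the 1063 spots, of 14809 in all, that carry this number in the deposited tables. A spot is a small barcoded region of the array under the tissue, which can hold several cells or part of one. For each spot the authors deposited the fraction they assigned to each of 67 cell types, or to unknown. The fractions of a spot add up to 1, so the types of a spot are not independent of each other. They are estimates and not counts of cells, and fewer cells of a type cannot be told apart in them from less RNA per cell.

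The study used chronic social defeat stress, in which mice are repeatedly attacked by a larger mouse, after which some avoid social contact (susceptible) and some do not (resilient). All mice were wild type C57, and the stressed mice were sorted by a social interaction test. The ketamine-treated susceptible group received ketamine intraperitoneally at 10 mg/kg and the brain was collected 7 days later, while the susceptible, resilient and control groups received saline. Each group was represented by 1 sagittal section, with 3477 spots in the ketamine-treated susceptible, 3443 in the susceptible, 4156 in the resilient and 3733 in the control section. With 1 section per group there is no test and no p-value. Every difference below is between single sections and cannot be told apart from differences between mice, slides or cutting planes.

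The 4 types by which cluster 4 was labelled differ in kind. Sst_Chodl names a rare class of GABAergic neuron that expresses somatostatin and chondrolectin and, unlike most cortical interneurons, sends long-range axons. Astro stands for astrocytes, which take up transmitter and potassium around synapses. L2_IT_RSPv names intratelencephalic neurons of layer 2 of the ventral retrosplenial cortex, a midline area that links the hippocampal formation with the neocortex. CR stands for Cajal-Retzius cells, which lie near the surface of the cortex and hippocampus and secrete reelin. The clustering and the type shares came from the same spots, so the makeup of cluster 4 against other clusters is a description. Cell names below stand for the types that the authors assigned. Whether the spots contained such cells was not tested.

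Sst_Chodl set cluster 4 apart from other clusters in every section, and astrocytes did not. The labelled types were chosen with these data known, so their shares here describe the cluster and do not test the label. Cluster 4 had the highest mean Sst_Chodl share of all clusters with at least 20 spots, at 24.3% in the ketamine-treated susceptible, 18.1% in the susceptible, 35.5% in the resilient and 17.7% in the control section. The next cluster reached 7.85%, 7.14%, 3.22% and 3.88% in the same sections. For Astro, cluster 4 ranked only 7th of 16 clusters in the ketamine-treated susceptible, 8th of 16 in the susceptible, 8th of 14 in the resilient and 5th of 15 in the control section. Astrocytes were thus a large share of cluster 4 without setting it apart from other clusters. The plot of Sst_Chodl by cluster shows how far this type separates cluster 4.

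**Figure D1:**
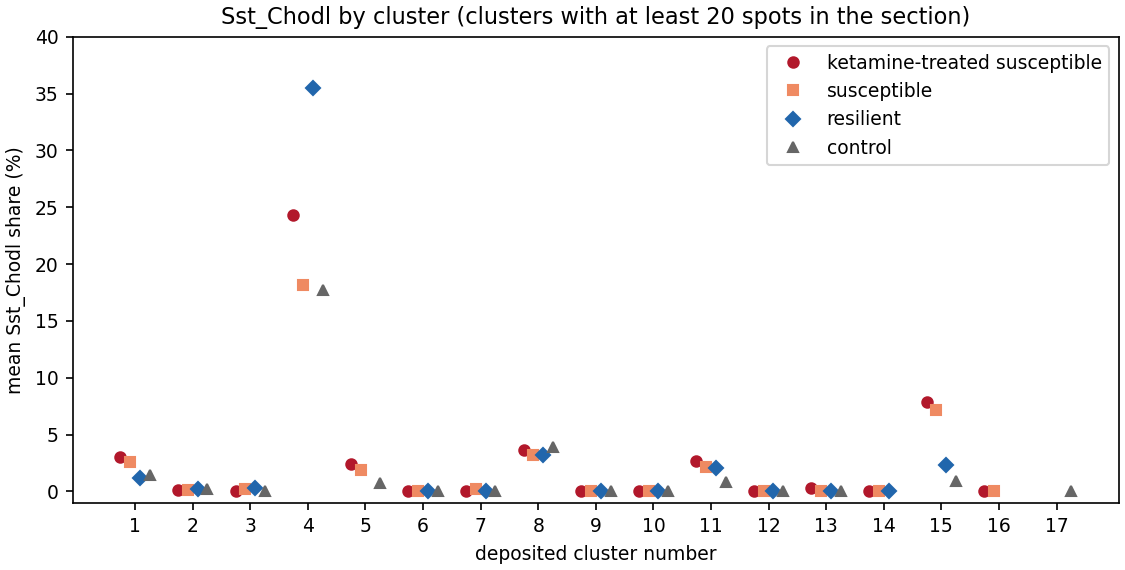
Mean deposited Sst_Chodl share (%, vertical axis) of each deposited cluster (horizontal axis) with at least 20 spots in a section, 1 point per section. Cluster 4 lies between 17.7% and 35.5%, and no other cluster exceeds 7.85%.

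The labelled types made up most of cluster 4 together. Astro, Sst_Chodl, L2_IT_RSPv and CR summed to 79.4% of the ketamine-treated susceptible, 74.97% of the susceptible, 74.9% of the resilient and 65.1% of the control cluster 4. In the other clusters they summed to 29.7%, 29.0%, 26.8% and 28.0% in those sections. At least 1 of the 4 types was held by 282 of 311 cluster 4 spots in the ketamine-treated susceptible, 227 of 254 in the susceptible, 382 of 426 in the resilient and 58 of 72 in the control section. In the control, where both values were lowest, Oligo took a larger share, as described below.

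The number of spots in cluster 4 differed widely between sections. It was 311 in the ketamine-treated susceptible section, or 8.94% of its spots (exact Clopper-Pearson 95% interval 8.02% to 9.94%). The susceptible section had 254 (7.38%, 6.53% to 8.30%), the resilient 426 (10.3%, 9.34% to 11.2%) and the control 72 (1.93%, 1.51% to 2.42%). By number of spots cluster 4 was the 3rd largest cluster in the ketamine-treated susceptible section, the 4th in the susceptible, the 3rd in the resilient and the 12th in the control. The intervals cover counting error only, and neighbouring spots are not independent. The share was 5.31 times the control's in the resilient section (4.13 to 6.92), 3.82 times in the susceptible (2.93 to 5.04) and 4.64 times in the ketamine-treated susceptible (3.58 to 6.08). Between the stressed sections the ratios were smaller, at 0.720 for susceptible against resilient (0.614 to 0.843) and 1.21 for ketamine-treated susceptible against susceptible (1.02 to 1.44).

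**Figure D2:**
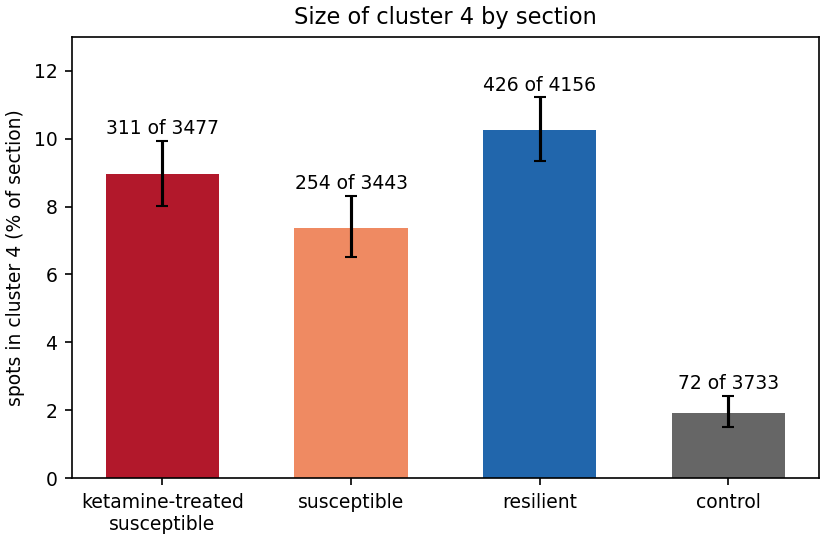
Share of each section's spots that carry cluster number 4 (%), with exact 95% intervals for counting error and the number of spots above each bar. The control bar, at 1.93%, lies below the 7.38% to 10.3% of the stressed sections, and no interval of theirs reaches it.

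Sst_Chodl was held, at any share, by 146 of the 311 ketamine-treated susceptible cluster 4 spots (46.9%, 41.3% to 52.7%). It was held by 92 of 254 susceptible spots (36.2%, 30.3% to 42.5%), 255 of 426 resilient spots (59.9%, 55.0% to 64.5%) and 25 of 72 control spots (34.7%, 23.9% to 46.9%). The resilient interval lies above those of the other sections, and the susceptible and control intervals overlap almost wholly. Where the type was present it took a median of 45.9% of the spot in the ketamine-treated susceptible, 45.1% in the susceptible, 49.7% in the resilient and 38.8% in the control section. Spots made up wholly of Sst_Chodl numbered 29, 16, 72 and 5 in the same sections. The sections thus differed mainly in how many spots held the type, with a smaller spread in how much of a spot it filled.

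Most of the Sst_Chodl signal of the stressed sections lay in cluster 4. Cluster 4 held 68.2% of the summed Sst_Chodl share of the ketamine-treated susceptible section, 58.8% of that of the susceptible, 83.1% of that of the resilient and 35.9% of that of the control. Outside cluster 4 the mean share was low, at 1.11%, 1.01%, 0.825% and 0.622% in those sections. Over all spots the resilient section had 3.42 percentage points more Sst_Chodl than the control, and 3.29 of these lay in cluster 4. Of the 3.29 points, 2.21 came from the larger number of cluster 4 spots and 1.08 from the larger share within them. The susceptible section had 1.32 points more than the control, of which 0.976 came from the number of cluster 4 spots and 0.0200 from the share within them.

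L2_IT_RSPv was lower in the resilient cluster 4 than in the others. Its mean share was 18.8% in the ketamine-treated susceptible, 21.3% in the susceptible, 4.11% in the resilient and 14.95% in the control cluster 4. It was held by 105 ketamine-treated susceptible spots (33.8%, 28.5% to 39.3%), 90 susceptible spots (35.4%, 29.6% to 41.7%), 36 resilient spots (8.45%, 5.99% to 11.5%) and 18 control spots (25%, 15.5% to 36.6%). The resilient interval lies below all others, which overlap each other. Outside cluster 4 the resilient section was much closer to the rest, with a mean of 5.14% in the ketamine-treated susceptible, 4.99% in the susceptible, 4.02% in the resilient and 5.42% in the control. L5_PT_RSP_ACA, layer 5 pyramidal tract neurons of the retrosplenial and cingulate areas, was also lowest in the resilient cluster 4, but not outside it. Its cluster 4 means were 1.97%, 1.60%, 0.245% and 1.13% in those sections, on 14, 9, 3 and 2 spots. Outside cluster 4 it was highest in the resilient section, with means of 6.78%, 6.57%, 8.59% and 4.58% in the same order. The summed retrosplenial or cingulate list of 4 types came to 21.1%, 23.2%, 4.48% and 16.1% of cluster 4.

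Astrocytes varied least of the large components. Their mean share was 28.6% in the ketamine-treated susceptible, 25.1% in the susceptible, 23.1% in the resilient and 25.7% in the control cluster 4. They were held by 153 ketamine-treated susceptible spots (49.2%, 43.5% to 54.9%), 108 susceptible spots (42.5%, 36.4% to 48.9%), 164 resilient spots (38.5%, 33.9% to 43.3%) and 26 control spots (36.1%, 25.1% to 48.3%). The ketamine-treated susceptible interval lies above the resilient one, and all other pairs overlap. Astro led the mean shares in every section but the resilient, where Sst_Chodl did. The plot of mean shares shows the close grouping of Astro beside the wide spread of Sst_Chodl and L2_IT_RSPv.

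**Figure D3:**
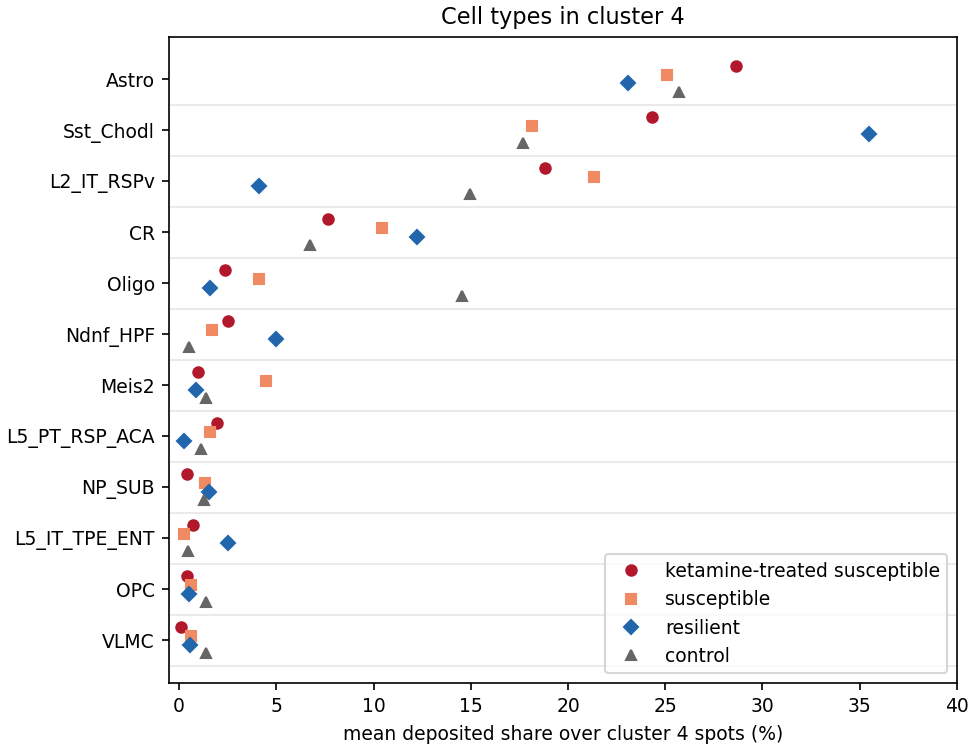
Mean deposited share (%) of the 12 named cell types over the cluster 4 spots of each section, 1 point per section. Resilient lies highest for Sst_Chodl at 35.5% and lowest for L2_IT_RSPv at 4.11%, and control lies highest for Oligo at 14.6%.

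Cajal-Retzius cells ranked 4th by mean share in the ketamine-treated susceptible and susceptible, 3rd in the resilient and 5th in the control cluster 4. Their mean share was 7.65% in the ketamine-treated susceptible, 10.4% in the susceptible, 12.2% in the resilient and 6.75% in the control cluster 4. They were held by 51 spots (16.4%, 12.46% to 21.0%), 53 spots (20.9%, 16.0% to 26.4%), 113 spots (26.5%, 22.4% to 31.0%) and 11 spots (15.3%, 7.88% to 25.7%) in those sections. The resilient and ketamine-treated susceptible intervals do not overlap. Cluster 4 held 34.1% of the summed CR share of the ketamine-treated susceptible section, 28.0% of the susceptible, 58.5% of the resilient and 17.3% of the control. By mean CR share it ranked 1st among clusters with at least 20 spots in the resilient and control sections. It ranked 2nd in the other sections, behind cluster 8 in the ketamine-treated susceptible (7.68%) and cluster 13 in the susceptible (16.0%).

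Oligodendrocytes, the myelin-forming cells, marked off the control cluster 4. Oligo had a mean share of 2.35% in the ketamine-treated susceptible, 4.08% in the susceptible, 1.57% in the resilient and 14.6% in the control. It was held by 18 spots (5.79%, 3.47% to 8.99%), 25 spots (9.84%, 6.47% to 14.2%), 12 spots (2.82%, 1.46% to 4.87%) and 20 spots (27.8%, 17.9% to 39.6%) in those sections. The control interval lies above the other 3. Outside cluster 4 Oligo was also highest in the control section, at 22.4%, against 13.7% in the ketamine-treated susceptible, 14.7% in the susceptible and 17.7% in the resilient. OPC, the precursors of oligodendrocytes, were held by 3, 2, 4 and 1 cluster 4 spots.

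Other GABAergic types were less common. Ndnf_HPF, interneurons of the hippocampal formation that express neuron-derived neurotrophic factor, had mean shares of 2.49% in the ketamine-treated susceptible, 1.69% in the susceptible, 4.97% in the resilient and 0.488% in the control cluster 4. They were held by 16 spots (5.14%, 2.97% to 8.22%), 12 spots (4.72%, 2.46% to 8.11%), 51 spots (11.97%, 9.05% to 15.4%) and 1 spot (1.39%, 0.0352% to 7.50%). In the other clusters together Ndnf_HPF was also highest in the resilient section, at 0.762%, 0.698%, 1.40% and 0.956% in the same order. Cluster 8, one of the clusters most like cluster 4, had 3.22%, 1.62%, 6.78% and 0.591%. Meis2, named for a homeobox gene, was highest in the susceptible cluster 4: its mean was 0.982% in the ketamine-treated susceptible, 4.48% in the susceptible, 0.884% in the resilient and 1.40% in the control. It was held by 9 spots (2.89%, 1.33% to 5.42%), 26 spots (10.2%, 6.80% to 14.6%), 11 spots (2.58%, 1.30% to 4.57%) and 3 spots (4.17%, 0.868% to 11.7%). In the other clusters Meis2 was also highest in the susceptible section, at 1.87% in the ketamine-treated susceptible, 2.30% in the susceptible, 0.293% in the resilient and 1.32% in the control. Sst, the somatostatin interneurons other than Sst_Chodl, was held by 2 ketamine-treated susceptible, 2 susceptible and 4 resilient spots (0.643%, 0.787% and 0.939%). In the other clusters Sst was about as rare, held by 0.474%, 0.564% and 0.885% of spots in these sections and 0.546% in the control. In cluster 4 it was held by 0 of 72 control spots, which allows a share of up to 4.17% of spots (3 spots; the exact 95% upper limit is 4.99%). All 11 GABAergic types summed to 28.8%, 25.6%, 43.2% and 19.6% of cluster 4 in the order ketamine-treated susceptible, susceptible, resilient and control.

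**Figure D4:**
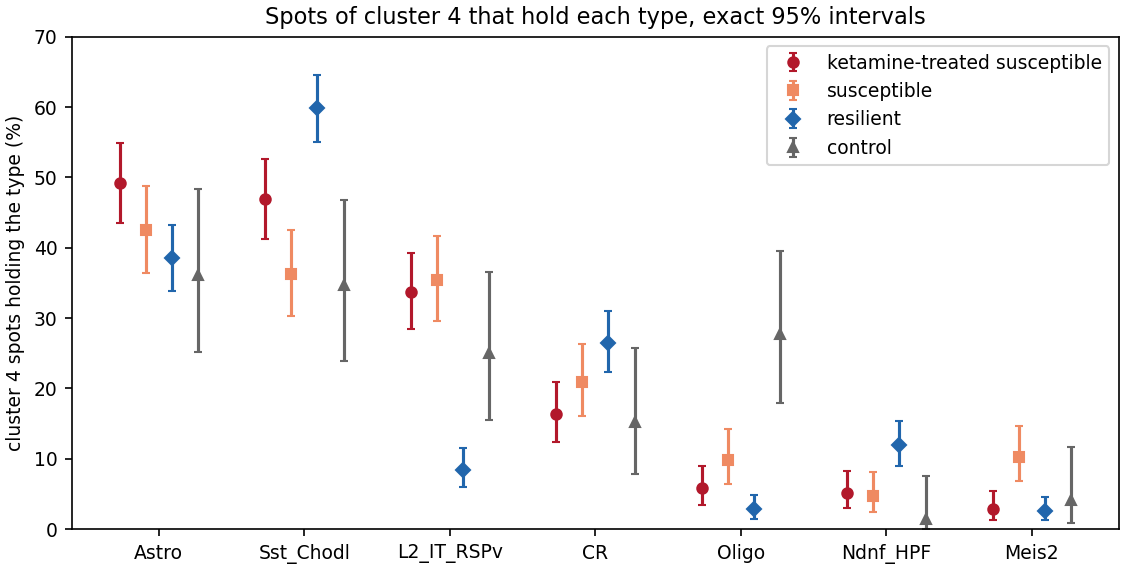
Share of cluster 4 spots in each section that hold a cell type at any deposited fraction (%), with exact 95% intervals for counting error. Resilient spots held Sst_Chodl most often (59.9%) and L2_IT_RSPv least often (8.45%), and control spots held Oligo most often (27.8%).

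Of the 67 types, 42 were held by at least 1 cluster 4 spot and 17 by spots of every section. The 42 were 23 of 47 glutamatergic, 10 of 11 GABAergic and all 9 non-neuronal types. A further 25 types were held by none of the 1063 spots, among them the dentate granule type DG, CA3, SUB and the isocortical types L2_3_IT_CTX, L4_5_IT_CTX and L6_CT_CTX. Some were rare elsewhere too. In the other clusters L4_5_IT_CTX was held by 0.188% to 0.563% of a section's spots and SUB by 0.253% to 0.683%. These lie below the exact limits given next, so 0 spots says little for them. CA3 was held by 0.474% to 1.23%, below the exact limit in all but the resilient section. DG was held by 1.04% to 1.74%, below it in the ketamine-treated susceptible and control sections. L2_3_IT_CTX was held by 3.62% to 4.42%, below it in the control section only. In those sections 0 spots says little for these types either. L6_CT_CTX was held by 5.42% to 7.67%. With 0 spots in a section, a share of up to 0.965% of cluster 4 spots is allowed in the ketamine-treated susceptible, 1.18% in the susceptible, 0.704% in the resilient and 4.17% in the control section, counting 3 spots as the limit. The exact 95% upper limits are 1.18%, 1.44%, 0.862% and 4.99%. The hippocampal list of 11 glutamatergic types summed to 0.597%, 1.65%, 2.24% and 1.26% of cluster 4 in those sections, and NP_SUB, near-projecting neurons of the subiculum, gave 0.391%, 1.32%, 1.54% and 1.26%. The entorhinal list of 10 types summed to 1.85%, 1.07%, 3.87% and 1.65%. Its member L5_IT_TPE_ENT was held by 5, 1, 25 and 1 spots, with means of 0.705%, 0.242%, 2.49% and 0.439%. Outside cluster 4 the means of L5_IT_TPE_ENT were 0.734%, 1.03%, 1.84% and 0.317%, also highest in the resilient section.

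Cells of vessels and immune cells were sparse. The 4 vascular types summed to 1.89% in the ketamine-treated susceptible, 1.22% in the susceptible, 1.36% in the resilient and 1.39% in the control cluster 4, against 4.09%, 3.59%, 3.996% and 3.13% in the other clusters. VLMC, vascular leptomeningeal cells of the brain's surface and vessels, were held by 1, 3, 6 and 1 cluster 4 spots. Microglia and macrophages summed to 0.859%, 0.435%, 0.964% and 0.424%. Spots given no type were more frequent in cluster 4 than in the other clusters together, at 4.50%, 5.51%, 5.40% and 9.72% against 3.44%, 4.17%, 1.96% and 3.52%. This was not particular to cluster 4. Of the clusters most like it, cluster 8 had 14.1%, 15.6%, 13.6% and 8.43% such spots, and clusters 1 and 11 had 0.791% to 4.73%.

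Cluster 4 spots were simpler mixtures than others. A spot with any type held a mean of 1.92 types in the ketamine-treated susceptible, 1.92 in the susceptible, 1.89 in the resilient and 1.80 in the control cluster 4, against 2.25, 2.17, 2.42 and 2.31 in the other clusters. A single type filled 34.1%, 34.6%, 34.3% and 37.5% of cluster 4 spots in those sections. Astro alone was the most frequent makeup in the ketamine-treated susceptible (38 spots), susceptible (30 spots) and control (12 spots) sections, and Sst_Chodl alone in the resilient (72 spots). Astro with L2_IT_RSPv accounted for 25 ketamine-treated susceptible, 11 susceptible, 8 resilient and 5 control spots. Sst_Chodl with Ndnf_HPF alone made up 12 resilient spots.

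Sst_Chodl and astrocytes tended to lie in different spots. Astro was held by 38.4% of ketamine-treated susceptible spots with Sst_Chodl (30.4% to 46.8%) and by 58.8% of those without it (50.9% to 66.4%). In the susceptible section the shares were 35.9% with (26.1% to 46.5%) and 46.3% without Sst_Chodl (38.4% to 54.3%). In the resilient section they were 25.1% with (19.9% to 30.9%) and 58.5% without (50.7% to 66.0%), and in the control 4 of 25 spots with and 22 of 47 without. The intervals are apart in the ketamine-treated susceptible and resilient sections. Spearman correlations of the 2 shares across spots were -0.36 (311 spots), -0.21 (254 spots), -0.47 (426 spots) and -0.39 (72 spots). Shares that add up to 1 in a spot tend to correlate negatively, so these values are a description.

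Astro was also held less often where CR was. It was held by 29.4% of ketamine-treated susceptible spots with CR (17.5% to 43.8%) and 53.1% without (46.8% to 59.3%). The shares were 20.8% with (10.8% to 34.1%) and 48.3% without CR (41.2% to 55.4%) in the susceptible section, 22.1% (14.9% to 30.9%) and 44.4% (38.8% to 50.1%) in the resilient, and 1 of 11 and 25 of 61 spots in the control. The intervals are apart in all but the control. CR and Sst_Chodl, by contrast, were not seen to lie apart. CR was held by 19.9% of ketamine-treated susceptible spots with Sst_Chodl and 13.3% of those without, and by 23 of 92 and 30 of 162 spots in the susceptible section. In the resilient section the shares were 29.0% with and 22.8% without, and in the control 8 of 25 spots with (14.9% to 53.5%) and 3 of 47 without (1.34% to 17.5%). The intervals overlap in every section. L2_IT_RSPv was held by 31.5% of ketamine-treated susceptible spots with Sst_Chodl and 35.8% of those without, and by 26.1% and 40.7% in the susceptible, 8.24% and 8.77% in the resilient and 16.0% and 29.8% in the control section. For L2_IT_RSPv too the intervals with and without Sst_Chodl overlap in every section.

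The resilient against control comparison asks how a stressed mouse that did not become avoidant differed from the control. Within cluster 4, Sst_Chodl was 2.00 times as high in the resilient section and CR 1.81 times, while L2_IT_RSPv was 0.275 times and Oligo 0.108 times the control. The ratios of shares of spots were 1.72 for Sst_Chodl (1.14 to 2.71) and 1.74 for CR (0.934 to 3.58), and CR was 1.35 times as high by spots led. With the equal t-SNE weights described below both turned, Sst_Chodl to 0.737 and CR to 0.795. That weighting covered only the 2 highest bins, with 64 and 42 of the 426 resilient spots. The bins richer in Sst_Chodl were left out. Ndnf_HPF and L5_IT_TPE_ENT were also higher, but each was held by 1 control spot, and the ratios of their shares of spots were 8.62 (1.48 to 347) and 4.23 (0.692 to 173). Meis2, OPC and VLMC were lower in mean share, each on 3 or fewer control spots, with ratios of shares of spots of 0.620 (0.164 to 3.46), 0.676 (0.0669 to 33.3) and 1.01 (0.123 to 46.6). For VLMC the direction thus differed between the measures. Astro and NP_SUB were less than 1.5-fold apart. Types were counted if their mean reached 1% in 1 of the sections compared and more than 3 of its spots or the other's held them. Of these, 9 of 11 were 1.5-fold or more apart, or 81.8%. The same count over all other clusters was 6 of 21 types, or 28.6%. Ndnf_HPF, L5_IT_TPE_ENT, Meis2, OPC and VLMC reached 1% in only 1 of the 2 sections, which favours a call. OPC and VLMC did so through 1 control spot each. Cluster 4 also has far fewer spots than the other clusters together. The 2 percentages, here and in the comparisons below, are therefore given side by side and their difference was not read.

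In susceptible against control, Sst_Chodl was level within cluster 4 by mean share, at a ratio of 1.02, and so was Astro, at 0.975. With the equal t-SNE weights described below, over 2 bins, Sst_Chodl was 0.631 times the control. By mean share Oligo was 0.280 times the control. Meis2 was 3.19 times as high by mean share, on 26 susceptible and 3 control spots, with a ratio of shares of spots of 2.46 (0.753 to 12.7). CR was 1.54 times and L2_IT_RSPv 1.43 times as high; CR was under 1.5-fold by spots holding it, at 1.37 (0.705 to 2.90). Ndnf_HPF was 3.46 times as high by mean share on 12 susceptible spots and 1 control spot (ratio of shares of spots 3.40, 0.503 to 145). By the share of spots it led, 1 in each section, it was 0.283 times the control. Past 1.5-fold were 4 of 9 types, or 44.4%, against 36.4% of types in the other clusters.

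Susceptible against resilient sets the outcomes of stress side by side. L2_IT_RSPv was 5.19 times as high and Meis2 5.07 times as high in the susceptible cluster 4. Oligo was 2.61 times as high by mean share but 1.12 times by the share of spots led and 1.33 times with the equal t-SNE weights described below, both under 1.5-fold. L5_PT_RSP_ACA was higher on 9 against 3 spots, a ratio of shares of spots of 5.03 (1.26 to 28.9). Sst_Chodl was 0.511 times and Ndnf_HPF 0.340 times the resilient value, and L5_IT_TPE_ENT was held by 1 spot against 25, a ratio of 0.0671 (0.00163 to 0.410). Astro, CR and NP_SUB were less than 1.5-fold apart. Past 1.5-fold were 7 of 10 types, or 70%, against 37.5% in the other clusters.

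In ketamine-treated susceptible against susceptible, no type was 1.5-fold or more higher within cluster 4, and 3 of 9 were lower, or 33.3%. In the other clusters 13% were apart, 8.7% higher and 4.35% lower. The 3 lower types within cluster 4 were Meis2 at 0.219 times, Oligo at 0.575 times, and NP_SUB on 3 spots against 7 (ratio of shares of spots 0.350, 0.0584 to 1.53). Oligo turned to 1.23 times by the share of spots it led, which were 6 and 4. Sst_Chodl was 1.34 times and Ndnf_HPF 1.47 times as high in the ketamine-treated section, Astro 1.14 times, L2_IT_RSPv 0.883 times and CR 0.735 times. Against the control, 3 of 8 types were 1.5-fold or more apart in the ketamine-treated susceptible section, or 37.5%, against 27.3% in the other clusters. Oligo was 0.161 times the control. Ndnf_HPF was held by 16 against 1 spots (ratio 3.70, 0.575 to 155) and L5_PT_RSP_ACA by 14 against 2 (ratio 1.62, 0.372 to 14.7), the second turning to 0.926 by the share of spots led, on 4 against 1. Sst_Chodl was 1.37 times the control.

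In the deposited t-SNE map, which places alike spots near each other and has no unit, cluster 4 was compact. Of the 15 nearest spots to a cluster 4 spot, 94.4% were also in cluster 4 in the ketamine-treated susceptible, 93.5% in the susceptible, 96.6% in the resilient and 82.4% in the control section. Most of the remaining neighbours belonged to cluster 1, at 5.21%, 5.56%, 2.00% and 17.04%. Spots with fewer than 8 of 15 neighbours in cluster 4 numbered 19, 11, 15 and 12. Their mean Sst_Chodl share was 7.30%, 2.60%, 6.35% and 2.62%, against 25.4%, 18.8%, 36.5% and 20.7% in the rest of cluster 4. Of the neighbours of resilient spots, 68.1% were resilient, while resilient spots made up 40.1% of cluster 4. For control spots the share of control neighbours was 48.2% against 6.77% of cluster 4.

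Sst_Chodl ran along the first axis of this map within cluster 4. Over 4 bins of about 266 spots each along tSNE_1, chosen after the data were seen, its mean over all sections was 49.1%, 29.5%, 20.6% and 8.22% from the lowest to the highest bin. Astro ran the other way, at 10.4%, 22.7%, 28.1% and 40.3%. The sections filled the bins unequally. The lowest bin held 35 of 311 ketamine-treated susceptible, 18 of 254 susceptible, 213 of 426 resilient and 0 of 72 control cluster 4 spots, the last allowing up to 4.17%. The highest held 28.9%, 35.8%, 9.86% and 59.7% in the same sections.

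With the bins filled by both sections weighted equally, Sst_Chodl differed less between the stressed sections compared. Against the control Sst_Chodl became lower in every stressed section, also in the susceptible, where the ratio had been level at 1.02. Section differences in L2_IT_RSPv kept their direction. Equal weights were given to the bins that held at least 20 spots of both sections. The Sst_Chodl ratio was then 0.919 for susceptible against resilient and 1.20 for ketamine-treated susceptible against susceptible (3 bins each). Both left out the lowest bin, which held 18 susceptible and 213 resilient spots. Against the control only the 2 highest bins could be used, and the ratio was 0.737 for resilient, 0.631 for susceptible and 0.678 for ketamine-treated susceptible. These bins held 64 and 42 of the 426 resilient cluster 4 spots. The ratios against the control thus cover part of the spots and not the bins richest in Sst_Chodl. CR was 0.795 times the control in the resilient section on this weighting, and Astro 1.74 times. L2_IT_RSPv was lower in the resilient than in the susceptible section in each bin: 24.4%, 18.1%, 22.3% and 22.1% in the susceptible, on 18 to 91 spots, and 1.55%, 6.66%, 7.88% and 4.88% in the resilient. Its equally weighted ratio was 3.22 for susceptible against resilient and 0.431 for resilient against control. The map was made from the same libraries, so the bins are not independent of the shares.

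**Figure D5:**
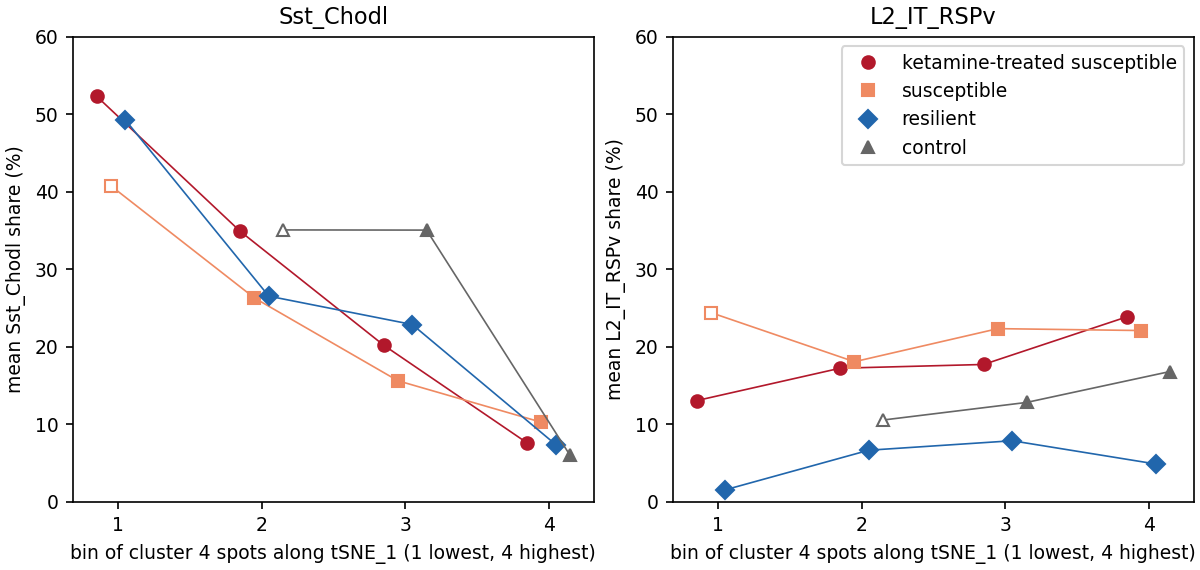
Mean deposited share (%) of Sst_Chodl (left) and L2_IT_RSPv (right) in 4 bins of cluster 4 spots along tSNE_1, 1 line per section; open symbols are bins with fewer than 20 spots. Sst_Chodl falls along the axis in each section's line apart from the level step between 2 control bins, while L2_IT_RSPv stays lowest in the resilient section, at 1.55% to 7.88%.

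The clusters with the most similar makeup were 11, 1 and 8, at mean Bray-Curtis distances of 0.412, 0.413 and 0.429 over the sections (0 would be an identical makeup, 1 no type in common). Cluster 1 held Astro at levels near those of cluster 4, at 27.9% in the ketamine-treated susceptible, 23.5% in the susceptible, 22.6% in the resilient and 27.1% in the control section. It held L2_IT_RSPv at 17.4%, 17.4%, 11.04% and 14.9%. It differed in Sst_Chodl, at 3.01%, 2.62%, 1.16% and 1.42%, in CR, at 2.86%, 4.01%, 1.75% and 0.874%, and in Oligo, at 21.6%, 25.3%, 31.6% and 32.6%. The resilient section had the lowest L2_IT_RSPv in cluster 1 too, but not in cluster 11 (20.0%, 13.9%, 8.18% and 7.46%) or cluster 8 (1.24%, 4.20%, 1.58% and 7.23%). Pvalb, a fast-spiking interneuron type, reached 5.39%, 5.00%, 9.44% and 7.25% in cluster 1, and in cluster 4 it was held by 1 ketamine-treated susceptible spot and by no other.

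Many spot barcodes occur in more than 1 section, from 2735 to 3304 for a pair of sections. The labels do not say whether a barcode marks the same array position on each slide. Of the barcodes in cluster 4, 146 were in cluster 4 in both the ketamine-treated susceptible and the susceptible section, which is 46.9% of the cluster 4 spots of the ketamine-treated susceptible and 57.5% of those of the susceptible section. The resilient and control sections shared 13, or 3.05% of the resilient and 18.1% of the control cluster 4 spots. The other 4 pairs of sections shared 0. None of these shared cluster 4 barcodes carried an identical mixture of more than 1 type in both sections. This leaves out spots filled by a single type. Over all clusters, 53.2% of the barcodes shared by the ketamine-treated susceptible and susceptible sections had the same cluster number, against 25.8% for resilient and control and 1.10% to 2.56% for the other pairs.

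All 426 barcodes of the resilient cluster 4 were also present in the control section, where 166 were in cluster 3, 150 in cluster 1 and 37 in cluster 17. In the control section these barcodes held Oligo at a mean of 35.7% and Astro at 28.1%. They were chosen by their cluster in the resilient section, so the difference between the sections at them is fixed in part by the choice and was not read. Of the 72 control cluster 4 barcodes, 22 were present in the resilient section. At the 146 barcodes in cluster 4 in both, Sst_Chodl averaged 22.7% in the ketamine-treated susceptible and 20.9% in the susceptible section, L2_IT_RSPv 17.4% and 19.4%, Astro 32.9% and 22.3%, and CR 6.91% and 10.7%. Sst_Chodl was held at 65 of them in the ketamine-treated susceptible and 59 in the susceptible section, and at 24 in both. Whether these barcodes covered the same tissue in both sections was not tested.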

How the data were processed

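Spatial transcriptomics was run on 1 sagittal section per group, on spatially barcoded slides per the labels' protocols. The authors deposited, for each spot, a cluster number and the fraction assigned to each cell type; the fractions sum to 1 per spot. A deposited table of t-SNE coordinates, treated as a score with no unit, was joined by barcode, since each barcode suffix matched the barcode set of exactly 1 section. Per the submitters' processing notes the genome build was mm10. What aligned the reads, clustered the spots and estimated the cell types, and from which reference, is not given in the sources used here. Cluster numbers were taken as 1 clustering of all sections. Spot positions and gene counts were not analysed here; depth is therefore unknown, and precision rests on the number of spots.

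Fractions were averaged over spots and given in percent. Shares of spots carry exact Clopper-Pearson 95% intervals, and ratios of such shares carry exact intervals for counting error. A type was compared where its mean was at least 1% in either section and more than 3 spots held it in at least 1; the call was 1.5-fold. A count of 0 allows up to 3 spots. Types named were the labelled types with Oligo and OPC, the 10 with the highest mean in cluster 4, and up to 5 per direction in each of the 5 comparisons, 12 in all; a few sparse types outside this rule (Sst, Pvalb and types held by no spot) were named after their values were seen. The members and lists were chosen with earlier results of these data known. Other settings were the spots holding or led by a type, a 20% minimum share, a 2% minimum mean, untyped spots left out, core spots only, 5 or 50 neighbours and, added after seeing the data, equal weights over t-SNE bins. The calculations were tested on simulated data. Python 3.11.15, numpy 2.4.6, pandas 2.3.3, scipy 1.17.1 and matplotlib 3.10.9 were used.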

Additional observations from a re-analysis of the deposited data

How the results depend on the processing

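With 1 section per group, no section could be left out, and no paired analysis was possible because each group has 1 section. Of 332 values recomputed under other settings, 312 stayed within counting error (counts of types within 1.5 times), 14 moved beyond it and 6 ratios past 1.5-fold turned. For sparse types the counting error was wide, from 1.75 to 410 for Ndnf_HPF in resilient against control. For such types, staying within it says little of stability. Setting shares under 20% to 0 could move little, since the smallest share kept in cluster 4 was 17.4% to 24.5% by section, so its 47 ratios say little of stability. A type at 0 in a section under a setting gave no ratio there. The percentage of the resilient section's summed Sst_Chodl share in cluster 4 was 77.3% counted by spots holding it, against 83.1%. For resilient against control, equal weights over t-SNE bins turned Sst_Chodl to 0.737 and CR to 0.795. These weights covered 2 bins, with 64 and 42 of the 426 resilient spots. In the same comparison the share of spots holding VLMC was 1.01 times the control's. By the share of spots led, Ndnf_HPF turned to 0.283 for susceptible against control, Oligo to 1.23 for ketamine-treated susceptible against susceptible, and L5_PT_RSP_ACA to 0.926 for ketamine-treated susceptible against control; Oligo was 1.12 for susceptible against resilient. These last rest on few led spots; the cause was not tested. Counts of types past 1.5-fold stayed within 1.5 times under every setting run. That is a wide margin: for resilient against control the count was 9 in the main setting and 6 by spots led. The number of spots limits the precision, with 72 in the control cluster 4. Shares too small to have been deposited are not covered.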
